A study of Mus musculus with 13 samples.

Results

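Type I alveolar cells are the thin squamous cells that line most of the gas-exchange surface of the lung, and 9 genes by which they are commonly recognised were followed: Ager, Hopx, Aqp5, Pdpn, Rtkn2, Emp2, Akap5, Clic5 and Cav1. Their rows were taken by gene symbol. All 9 were found among the 20270 genes of the deposited tables, and all 9 passed the filter on low counts that left 15315 genes for testing. Lung RNA was sequenced in 13 libraries in 3 groups: Control (wildtype mice, n = 4), WT bleomycin (n = 5) and CB1R KO bleomycin (n = 4). Bleomycin, a DNA-damaging drug used to produce pulmonary fibrosis, was given once by oropharyngeal aspiration at 1 U/kg, and lungs were taken 14 days later. Control mice received saline by the study's methods. WT mice were male C57BL/6J animals of 13 weeks, and CB1R KO mice carried Cnr1-/-, a loss of the cannabinoid receptor gene in all cells, on the same background. The age of the knockout mice was not given in the sources used here. Knockout mice given no bleomycin were not analysed here. Libraries are called by the numbers in their labels.

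Type I cells share a basement membrane with the capillary endothelium, and type II cells, which make surfactant, replace them after injury by passing through a transitional state rich in keratins. Of the members, Ager encodes RAGE, a pattern-recognition receptor on the basolateral membrane, Aqp5 a water channel of the apical membrane, and Pdpn podoplanin, an apical mucin-type glycoprotein. Cav1 is the coat protein of caveolae and Emp2 a tetraspan membrane protein. Clic5 links membranes to the actin cortex, Akap5 anchors protein kinase A at the membrane, and Hopx is a homeodomain protein that does not bind DNA by itself. Several are not restricted to type I cells: Cav1, Emp2 and Clic5 are also made by endothelium, Cav1 by adipocytes, Hopx by heart muscle and cytotoxic lymphocytes, and Pdpn by lymphatic endothelium, mesothelium and fibroblasts.

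The 250 bases before the start site of 4 members are shown because these genes went different ways after bleomycin: Clic5 and Emp2 were lower, Pdpn was higher and Ager did not pass the test. Windows come from RefSeq on GRCm38.p6, an older build than the GRCm39 reference of the study. They were matched by symbol for 8 of the 9 members, which gave 10 windows, and none matched Rtkn2. Capitals mark the letters GGGCGG or their reverse complement, the core of a GC box. In the GENCODE annotation of GRCm38 none of the 4 windows overlaps a gene.
Clic5 (chr17:44188322-44188571, plus strand): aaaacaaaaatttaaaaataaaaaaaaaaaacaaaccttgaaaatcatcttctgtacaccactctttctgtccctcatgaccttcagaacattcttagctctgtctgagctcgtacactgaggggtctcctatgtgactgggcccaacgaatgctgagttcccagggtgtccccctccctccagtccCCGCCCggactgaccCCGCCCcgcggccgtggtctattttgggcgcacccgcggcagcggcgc
Emp2 (chr16:10313969-10314218, minus strand): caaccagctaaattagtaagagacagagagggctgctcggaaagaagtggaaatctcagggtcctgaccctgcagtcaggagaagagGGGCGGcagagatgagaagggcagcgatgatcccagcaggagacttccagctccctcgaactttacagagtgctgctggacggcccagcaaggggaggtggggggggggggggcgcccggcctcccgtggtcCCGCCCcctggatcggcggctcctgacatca
Pdpn (chr4:143299565-143299814, minus strand): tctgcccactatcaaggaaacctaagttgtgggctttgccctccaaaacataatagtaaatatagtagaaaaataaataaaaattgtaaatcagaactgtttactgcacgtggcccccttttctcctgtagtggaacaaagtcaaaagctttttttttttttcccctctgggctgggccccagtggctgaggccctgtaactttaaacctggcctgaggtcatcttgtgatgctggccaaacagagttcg
Ager (chr17:34597600-34597849, plus strand): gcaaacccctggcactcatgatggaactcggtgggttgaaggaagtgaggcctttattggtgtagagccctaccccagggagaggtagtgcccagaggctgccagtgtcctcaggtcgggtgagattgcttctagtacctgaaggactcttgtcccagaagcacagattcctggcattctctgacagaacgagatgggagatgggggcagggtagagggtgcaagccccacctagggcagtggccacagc
The Clic5 and Emp2 stretches each hold 2 GC boxes, and those of Pdpn and Ager hold none. In the same stretch of the other members, Hopx, which was lower, had none at either of its starts, Cav1, also lower, had 1 and another across the first of its starts and none at its second, and Aqp5 and Akap5, which did not pass, had 2 and 3. Counts over the whole window add 50 bases after the start. There GGGCGG on either strand was present for 6 of the 8 members with a window (Aqp5, Pdpn, Emp2, Akap5, Clic5 and Cav1). It was in 35.7% of 32851 promoter windows of the same length, a share of windows and not of genes. CATTCC, the core bound by TEAD factors, was in no member window against 14.7% of all, CACTTG, an NKX2-1 core, was in that of 1 member (Hopx) against 13.6%, and TATAAA in that of 1 (Cav1) against 13.6%. None of the searched motifs contains another, the GC box was added after the sequences had been seen, and a missing match says only that these letters are not in this window.

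**Figure D1:**
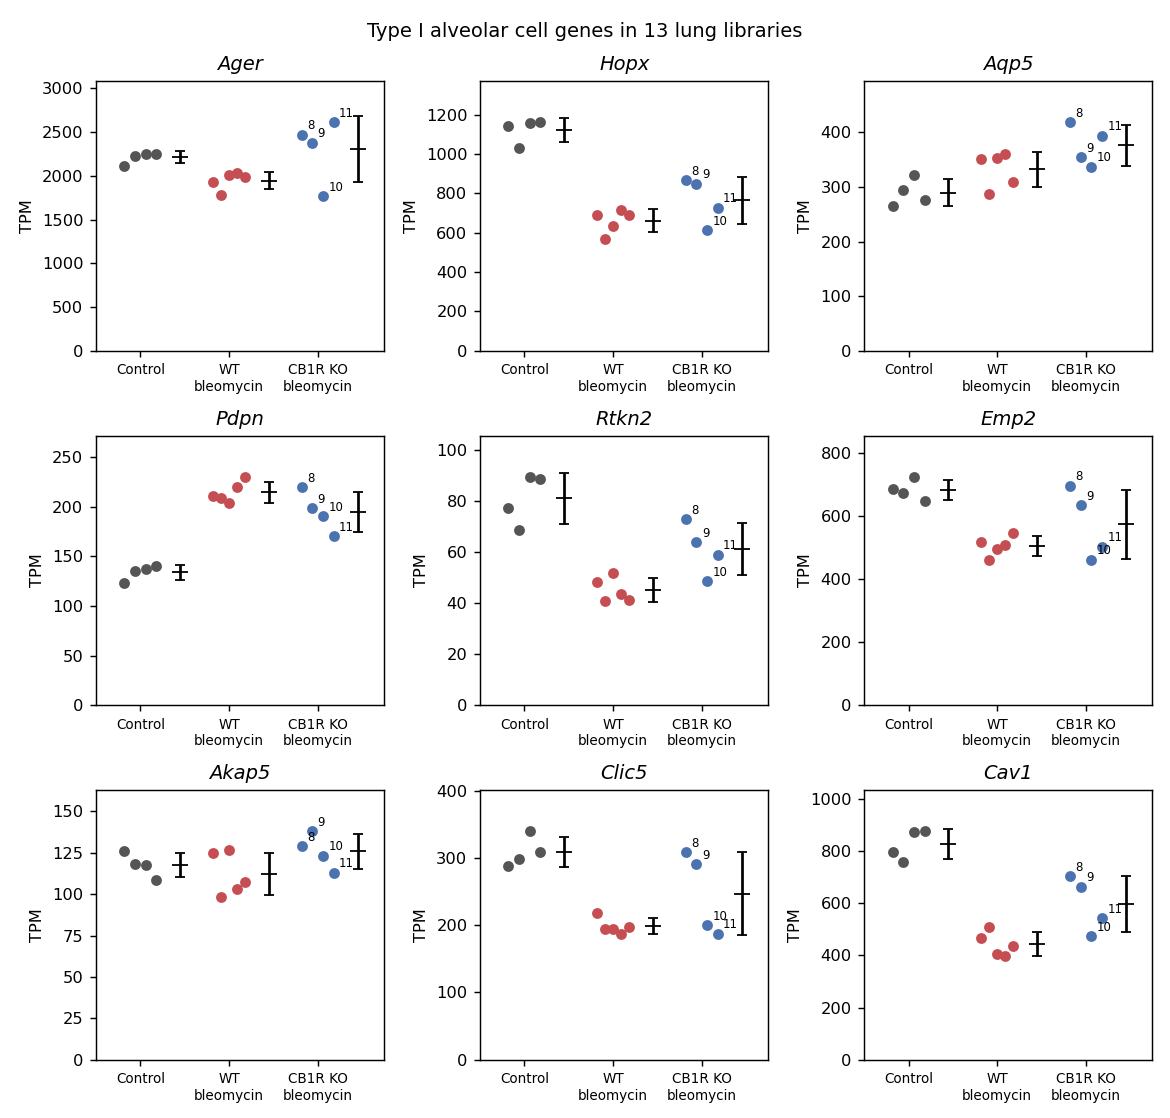
Level of each type I alveolar cell gene in TPM (transcript abundance scaled for length and depth; vertical axes start at 0 and differ between panels) in 13 lung libraries. Points are libraries, numbers name the CB1R KO libraries, and the bar beside each group is the mean with its SD (n = 4, 5 and 4). Rtkn2, Cav1, Hopx, Clic5, Emp2 and Ager are lower and Pdpn is higher in all 5 WT bleomycin libraries than in any Control library. In depth-scaled counts Ager overlaps between these groups, while 40.3% of all genes tested do not.

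The members are among the more abundant transcripts of the lung. In Control lungs the mean level in TPM, which is scaled for length and so can be compared between genes, ran in the order Ager 2211 ± 68.7 (SD, n = 4), Hopx 1123 ± 62.4, Cav1 826 ± 57.6, Emp2 683 ± 32.6, Clic5 309 ± 22.6, Aqp5 289 ± 25.1, Pdpn 134 ± 7.45, Akap5 118 ± 7.13 and Rtkn2 80.9 ± 10.0. Ager held rank 33 and Rtkn2 rank 1475 of the 20270 genes. Neighbours kept this order in every Control library, except Pdpn and Akap5, where Pdpn was above in 3 of 4. The ranges of Clic5 and Aqp5 overlapped, as did those of Pdpn and Akap5, and no other pair of neighbours overlapped. After bleomycin the order changed: in WT lungs Pdpn (215 ± 10.6, n = 5) stood above Clic5 (198 ± 11.8) in 4 of 5 libraries, and Aqp5 (332 ± 32.2) above both in all 5. Rtkn2 stayed lowest in all 3 groups and moved to rank 3039 in WT bleomycin and 2251 in CB1R KO bleomycin lungs.

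The deposited TPM of a library summed to between 821763, in CB1R KO library 11, and 854358, in Control library 24. Summed over the 9 genes, the share of this total was between 0.659% and 0.704% in Control, between 0.487% and 0.545% in WT bleomycin, and between 0.496% and 0.695% in CB1R KO bleomycin libraries. The Control and WT bleomycin ranges did not meet. CB1R KO libraries 8, 9 and 11 lay above the WT bleomycin range at 0.695%, 0.658% and 0.646%, and library 10 lay inside it at 0.496%. The sum leans on Ager, which alone held 2612 of the 5307 TPM of the 9 genes in library 11. In the main fit Ager passed in none of the 3 comparisons. In bulk lung tissue, fewer type I cells, less RNA per cell and a changed share of RNA from other cells cannot be told apart.

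Of the libraries, 12 held 14615904 to 16662580 estimated counts, and CB1R KO library 11 held 53463884. No column of values was identical to another. The WT bleomycin libraries 4 and 4-B2 share a number, and whether they come from separate mice was not given in the sources used here. With either of them left out, 6 members passed in WT bleomycin against Control. Over all genes, 7154 of 15268 passed without library 4 and 6951 of 15270 without 4-B2. Cnr1 was counted 27 to 69 times in Control, 50 to 110 times in WT bleomycin and 41 to 188 times in CB1R KO libraries (188 in the deepest), and the log2 fold change of Cnr1 in CB1R KO against WT bleomycin was -0.53 ± 0.28 (SE, edgeR adjusted p = 0.367). Cnr1 counts therefore did not check the genotype, and the knockout libraries are taken as the libraries labelled CB1R KO. Library names come in 2 styles, lower case or capitals, and the capitals (Control 26, WT bleomycin 4-B2 and 7) include no CB1R KO library; what the styles stand for was not given in the sources used here.

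The first comparison asked what bleomycin did to these genes in WT lungs. Of the 9 members, 5 were lower and 1 was higher after bleomycin in WT lungs at an adjusted p of 0.05 (quasi-likelihood test of edgeR, adjusted by Benjamini and Hochberg's method over all genes tested), and 3 did not pass. Bleomycin moved much of the transcriptome: 48.9% of all genes tested passed the same threshold, 25% higher and 23.9% lower. The median log2 fold change was -0.47 over the members and -0.01 over all genes tested.

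Rtkn2 fell most. It had 77.0, 68.5, 89.4 and 88.6 TPM in Control libraries 3, 21, 24 and 26 and 48.0, 40.7, 51.9, 43.4 and 41.2 TPM in WT bleomycin libraries 4, 2, 5, 4-B2 and 7. All 5 bleomycin libraries were below all 4 Controls. The log2 fold change was -0.97 ± 0.11 (SE, adjusted p = 8.81e-06), and 4.95% of the genes tested had a lower one.

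Cav1, the caveolar coat protein, had 797, 759, 873 and 876 TPM in Control and 465, 508, 407, 397 and 436 TPM in WT bleomycin libraries. The groups were apart, with the log2 fold change at -0.93 ± 0.12 (adjusted p = 1.93e-05). Hopx had 1144, 1030.5, 1157 and 1162 TPM in Control and 692, 569, 636, 714 and 692 TPM in WT bleomycin libraries, again with no overlap, and fell by 0.84 ± 0.10 on the log2 scale (adjusted p = 1.26e-05).

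Clic5 had 287, 299, 339.9 and 309 TPM in Control and 219, 194, 195, 187 and 198 TPM in WT bleomycin libraries, a log2 fold change of -0.68 ± 0.13 (adjusted p = 0.000492). Emp2 had 686, 673, 726 and 648 TPM in Control and 519, 462, 496, 509 and 546 TPM in WT bleomycin libraries, a log2 fold change of -0.47 ± 0.10 (adjusted p = 0.00202). Neither gene overlapped between the groups. Over all genes tested, depth-scaled counts (CPM) did not overlap between these groups for 40.3%.

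Pdpn went the other way. Podoplanin transcripts stood at 123, 135, 138 and 139.9 TPM in Control and at 210.5, 209, 204, 220.3 and 230.4 TPM in WT bleomycin libraries, so every treated library was above every Control. Its log2 fold change was 0.63 ± 0.07 (adjusted p = 9.59e-06), and 87.4% of the genes tested had a lower one.

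Ager, Aqp5 and Akap5 did not pass. Ager had 2109, 2227, 2254 and 2252 TPM in Control and 1924, 1779, 2006, 2026 and 1982 TPM in WT bleomycin libraries. The groups did not overlap in TPM but did in CPM, and the log2 fold change was -0.21 (95% interval -0.44 to 0.01, adjusted p = 0.101). Ager passed under 3 alternatives: the adjusted p was 0.00565 with DESeq2 on these 2 groups alone, 0.0208 with edgeR on these 2 groups alone, and 0.028 without CB1R KO library 10. Aqp5 had 264, 295, 322 and 276 TPM in Control and 352, 287, 353, 360.2 and 309.8 TPM in WT bleomycin libraries, with overlap and a log2 fold change of 0.19 (0.0016 to 0.39, adjusted p = 0.0881). WT bleomycin library 2 was the lowest, and without it the value was 0.25 (adjusted p = 0.0242). Akap5 had 109 to 126 TPM in Control and 98.3 to 126 TPM in WT bleomycin libraries, a log2 fold change of -0.16 (-0.32 to -0.0047, adjusted p = 0.0819); the adjusted p was 0.049 without Control 26 and 0.0455 without WT bleomycin 5.

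**Figure D2:**
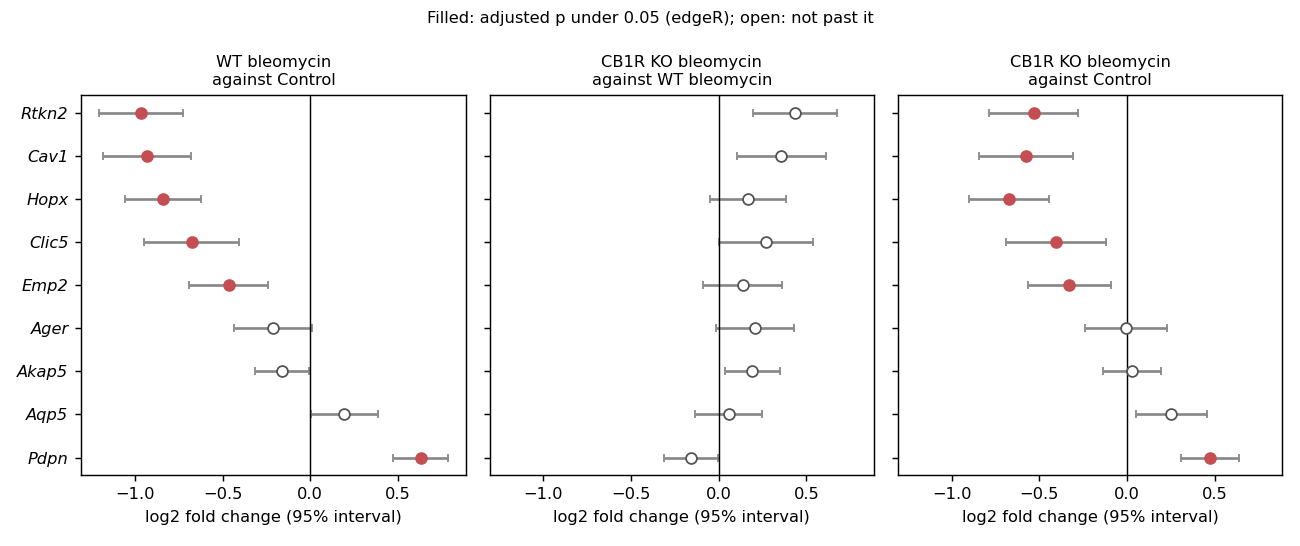
Log2 fold change of the 9 genes in 3 comparisons (horizontal axis; bars are 95% intervals from edgeR's quasi-likelihood fit, filled points passed an adjusted p of 0.05). The same number of genes, 6, passed in each comparison with Control and none between CB1R KO and WT bleomycin lungs. Over all genes tested, 48.9% passed in WT bleomycin and 35.4% in CB1R KO bleomycin against Control. Between CB1R KO and WT bleomycin lungs 0.979% passed. There, 8 of the 9 values were above 0, as were 7673 of the 15315 genes tested. Both comparisons with Control share the same 4 libraries.

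Because the members did not move together, their proportions changed. These ratios were chosen after the values had been seen and are given with no test. The ratio of Pdpn to Hopx in TPM was 0.108 to 0.131 in Control, 0.304 to 0.367 in WT bleomycin and 0.234 to 0.311 in CB1R KO bleomycin libraries. Aqp5 to Hopx was 0.231 to 0.286, 0.448 to 0.555 and 0.418 to 0.551. Ager to Hopx was 1.84 to 2.16, 2.78 to 3.15 and 2.80 to 3.60. In each of the 3 ratios every bleomycin library, of either genotype, was above every Control library. Cav1 to Cav2, a pair of caveolins, was 3.23 to 3.71 in Control, 3.05 to 3.58 in WT bleomycin and 3.23 to 4.17 in CB1R KO bleomycin libraries, and overlapped across all 3 groups.

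A further 21 genes reported as enriched in type I cells were also split. After bleomycin in WT lungs 7 rose, 8 fell and 6 did not pass, with a median log2 fold change of -0.17; with the lower-case libraries alone 8 of the 21 passed. Those that rose were led by Ndnf, a secreted neuron-derived factor (1.56 ± 0.10, adjusted p = 6.9e-08), and Igfbp2, an insulin-like growth factor binding protein (1.04 ± 0.10, adjusted p = 2.42e-06). Those that fell were led by Vegfa, the endothelial growth factor (-0.54 ± 0.07, adjusted p = 2.21e-05), and Phactr1, a regulator of actin and phosphatase 1 (-0.90 ± 0.12, adjusted p = 2.28e-05).

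Genes of the neighbouring alveolar states moved as follows. Of 13 type II cell markers, 6 fell and 2 rose in WT bleomycin lungs: surfactant protein genes Sftpa1 (-1.16 ± 0.17, adjusted p = 7.16e-05) and Sftpc (-0.83 ± 0.13, adjusted p = 9.05e-05) led those that fell, and the protease gene Ctsh (1.52 ± 0.15, adjusted p = 1.81e-06), which macrophages also make, and the collectin gene Sftpd (0.30 ± 0.09, adjusted p = 0.0152) rose. Of 13 transitional alveolar genes 12 rose, led by the claudin gene Cldn4 (3.25 ± 0.20, adjusted p = 6.9e-08) and Cdkn1a, a cell cycle inhibitor (2.39 ± 0.18, adjusted p = 2.69e-07). Of 10 general epithelial genes, 5 rose, led by Elf3, an epithelial transcription factor (0.57 ± 0.14, adjusted p = 0.00392), and the adhesion gene Epcam (0.31 ± 0.09, adjusted p = 0.00834), and 1 fell, the lung regulator Nkx2-1 (-0.32 ± 0.11, adjusted p = 0.0224). That list had 3 calls without Control 21, without Control 24 or without WT bleomycin 4-B2, and 1 call with the lower-case libraries alone.

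Cav1, Clic5 and Emp2 fell beside endothelial genes. All 9 markers of aerocytes, the capillary cells that face type I cells, were lower in WT bleomycin lungs, with a median log2 fold change of -0.88; Fibin (-1.90 ± 0.23, adjusted p = 1.38e-05) and Ednrb, the endothelin B receptor (-1.75 ± 0.22, adjusted p = 1.72e-05), had the lowest p. Their summed level was 799.9 to 845 TPM in Control, 430.3 to 503 TPM in WT bleomycin and 476 to 642 TPM in CB1R KO bleomycin libraries. Of 13 general capillary and endothelial markers 11 fell and none rose, among them the receptor gene Tek (-0.93 ± 0.06, adjusted p = 6.9e-08) and the phosphatase gene Ptprb (-0.81 ± 0.08, adjusted p = 1.41e-06); the summed level was 2610 to 3175, 1889 to 2206 and 2159 to 2414 TPM. No marker of either list was at 0. The part of endothelial RNA in the fall of Cav1, Clic5 and Emp2 was not tested.

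Among 8 genes of caveolae, a list that includes Cav1 itself, 4 fell and 1 rose in WT bleomycin lungs. Cav2, the partner of Cav1, fell by 0.87 ± 0.12 on the log2 scale (adjusted p = 3.31e-05), and Cavin2, a caveolar coat protein, by 1.22 ± 0.12 (adjusted p = 2.67e-06). Cavin1, which is needed for caveolae to form, changed by -0.21 ± 0.07 (adjusted p = 0.022). Cavin3 rose (0.69 ± 0.09, adjusted p = 1.92e-05). Ehd2 (-0.09), Pacsin2 (-0.08) and Pacsin3 (-0.12) did not pass.

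Hopx and Cav1 also fell beside genes of other tissues that use them. All 8 heart muscle markers were lower in WT bleomycin lungs, led by Ryr2, the sarcoplasmic calcium release channel (-1.88 ± 0.28, adjusted p = 8.81e-05), and Tnni3, cardiac troponin I (-1.97 ± 0.30, adjusted p = 9.7e-05); their summed level was 714 to 1860.2 TPM in Control, 139 to 529.96 TPM in WT bleomycin and 507 to 927 TPM in CB1R KO libraries. All 7 markers of cytotoxic T and NK cells were lower, led by the granzyme gene Gzma (-1.86 ± 0.14, adjusted p = 2.48e-07) and the perforin gene Prf1 (-1.76 ± 0.15, adjusted p = 5.18e-07), with summed levels of 109 to 146, 32.3 to 51.3 and 63.8 to 75.5 TPM. Of 6 adipocyte markers tested 3 fell, with Cidec, a lipid droplet gene, lowest in p (-2.14 ± 0.38, adjusted p = 0.000371), and then Plin1, which coats lipid droplets (-1.79 ± 0.60, adjusted p = 0.0227). This number ranged from 1 (without Control 3, Control 26, WT bleomycin 4-B2 or WT bleomycin 7) to 6 (without Control 24 or WT bleomycin 4). The sums were 82.5 to 341, 30.9 to 187 and 76.6 to 336 TPM. The part of these tissues in the levels of Hopx and Cav1 was not tested.

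Pdpn rose beside markers of other podoplanin-bearing cells. Of 6 lymphatic endothelial markers 4 rose, led by the chemokine gene Ccl21a (1.53 ± 0.19, adjusted p = 1.56e-05) and Mmrn1 (1.35 ± 0.19, adjusted p = 4.84e-05), with Lyve1 at 0.02 ± 0.31; the summed level was 259 to 337 TPM in Control and 457 to 705 TPM in WT bleomycin libraries. All 7 activated fibroblast markers rose, led by the matrix genes Tnc (4.43 ± 0.26, adjusted p = 4.31e-08) and Col3a1 (2.80 ± 0.19, adjusted p = 1e-07), from a sum of 341 to 457 TPM to one of 1598 to 2128 TPM. Of 5 mesothelial markers 1 rose, Msln (0.78 ± 0.17, adjusted p = 0.00193), and 2 fell, Upk1b (-0.51 ± 0.09, adjusted p = 0.000196) and Upk3b (-0.69 ± 0.15, adjusted p = 0.00195), with sums of 117 to 152 and 112 to 169 TPM. No marker of these 3 lists was at 0, and their part in the rise of Pdpn was not tested.

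Leukocyte and airway genes moved too. Of 8 macrophage and leukocyte markers 5 rose, led by the lysosomal gene Cd68 (1.37 ± 0.14, adjusted p = 2.4e-06) and the integrin gene Itgax (1.14 ± 0.12, adjusted p = 3.07e-06). Of 6 airway cell markers 3 fell, led by the club cell genes Cyp2f2 (-1.39 ± 0.09, adjusted p = 8.85e-08) and Scgb1a1 (-0.84 ± 0.13, adjusted p = 0.000121), and 1 rose, the mucin gene Muc5b (0.93 ± 0.32, adjusted p = 0.0255); without Control 21, 2 of the 6 passed.

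**Figure D3:**
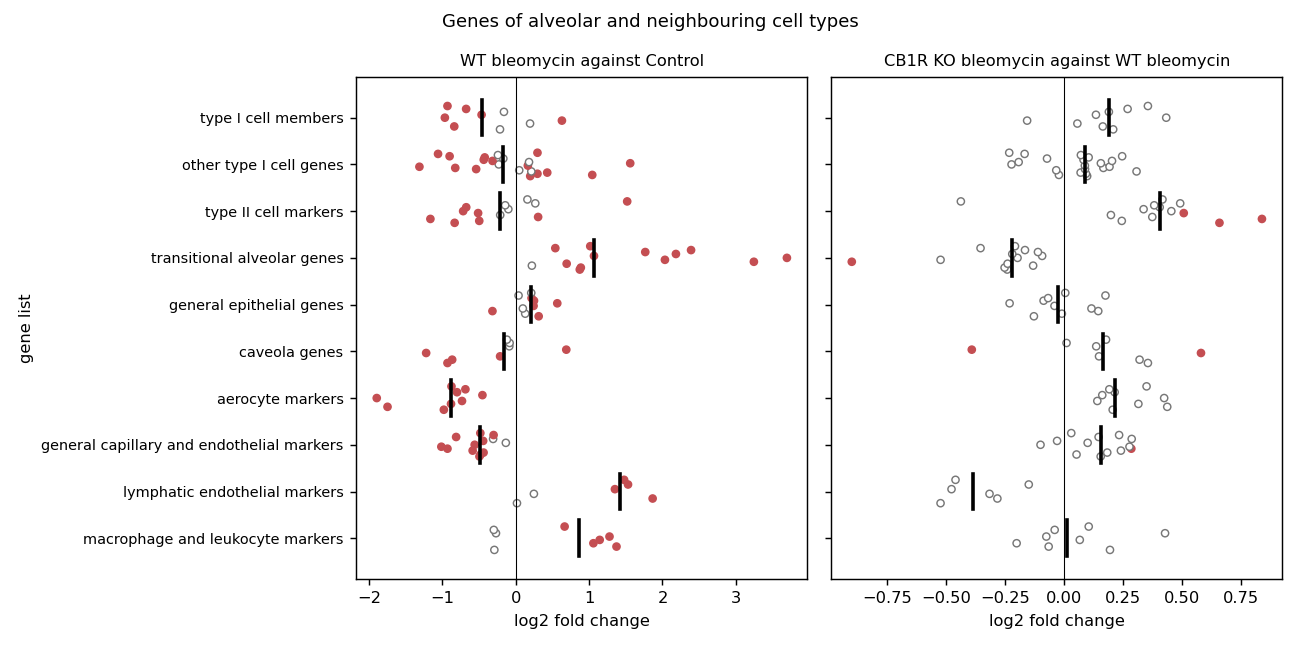
Log2 fold change of genes of the type I cell list, other alveolar or epithelial lists, caveola genes (with Cav1) and lists of neighbouring cells. Points are single genes, filled where the adjusted p was under 0.05 in edgeR, and the black line is the list's median. WT bleomycin against Control is at the left and CB1R KO against WT bleomycin at the right. The horizontal axes differ: all 9 aerocyte markers are below 0 at the left and above 0 at the right, where none of them passed.

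The families of the members were followed by symbol. Of 15 relatives, 4 rose and 5 fell in WT bleomycin lungs. Emp1 (1.22 ± 0.12, adjusted p = 1.78e-06) and Emp3 (0.68 ± 0.11, adjusted p = 0.000168) rose where Emp2 fell, and Pmp22, a tetraspan of the same family, fell (-0.42 ± 0.08, adjusted p = 0.000562). Emp1 went from 123 ± 17.0 TPM (n = 4) to 295 ± 20.9 TPM (n = 5). Clic1 rose (0.67 ± 0.09, adjusted p = 4.2e-05), while Clic3 (-0.30 ± 0.09, adjusted p = 0.0139) and Clic4 (-0.32 ± 0.06, adjusted p = 0.000742) fell with Clic5. Aqp1, the endothelial water channel, was at 539 ± 14.7 TPM in Control and 511 ± 22.0 TPM in WT bleomycin lungs (-0.11, adjusted p = 0.142), and Aqp3, Aqp4 and Aqp9 did not pass. Rtkn, the relative of Rtkn2, fell by 0.28 ± 0.07 (adjusted p = 0.0028). Cav3, the muscle caveolin, rose (1.47 ± 0.24, adjusted p = 0.000149) from a low level of 1.99 ± 0.12 TPM to 5.65 ± 1.84 TPM.

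Of 5 ligands of RAGE, the product of Ager, 2 rose and 2 fell. S100a11 rose from 966 ± 13.2 TPM to 1983 ± 229 TPM (1.02 ± 0.13, adjusted p = 2.21e-05), and S100b rose at a low level (1.91 ± 0.24, adjusted p = 1.73e-05). The neutrophil genes S100a8 (-1.90 ± 0.48, adjusted p = 0.00441) and S100a9 (-2.06 ± 0.47, adjusted p = 0.00239) fell. Both varied widely in Control and overlapped between the groups. S100a8 ran from 100 to 587 TPM in Control and from 54.0 to 134 TPM in WT bleomycin libraries. S100a9 ran from 132 to 843 and from 66.6 to 169 TPM. Hmgb1, at 254 ± 13.9 and 252 ± 18.2 TPM, had a log2 fold change of -0.07 ± 0.07 (adjusted p = 0.48).

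Of 7 membrane partners of podoplanin and CLIC5 that were tested, 2 rose and 3 fell. Ezr and Msn, the ezrin and moesin genes, were at -0.06 and 0.06, while Rdx, the radixin gene, fell (-0.48 ± 0.06, adjusted p = 1.39e-05). Cd44, a podoplanin-binding receptor, rose (0.86 ± 0.08, adjusted p = 1.24e-06) and Clec1b, the podoplanin receptor of platelets, fell (-1.29 ± 0.18, adjusted p = 4.42e-05). The scaffold gene Slc9a3r1 rose (0.27 ± 0.06, adjusted p = 0.00241) and Slc9a3r2 fell (-0.86 ± 0.09, adjusted p = 4.79e-06).

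Of 8 partners of AKAP5, 1 rose and 2 fell. Prkar2a, a regulatory subunit of protein kinase A, rose (0.49 ± 0.05, adjusted p = 2.78e-06), and Ppp3ca, a calcineurin subunit, was among those that fell (-0.31 ± 0.07, adjusted p = 0.00179). Of 14 transcription regulators and targets linked to type I cell state, 4 rose and 2 fell. Tead3 (0.54 ± 0.11, adjusted p = 0.000697) and Ccn2, a target of YAP and TAZ (0.90 ± 0.18, adjusted p = 0.000811), led those that rose, and Yap1 (-0.18 ± 0.05, adjusted p = 0.00991) was, with Nkx2-1, among those that fell.

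The second comparison asked whether the libraries labelled CB1R KO differed from WT after the same treatment. None of the 9 members passed (edgeR, adjusted p of 0.05), against 0.979% of all genes tested. At an unadjusted p under 0.05 there were 5 members, 4 higher and 1 lower, against 17% of all genes tested (7.95% higher and 9.08% lower). DESeq2 called 1 member, with 640 of 19823 genes called on all libraries and 644 of 19704 on the 2 groups. Without CB1R KO library 10, edgeR called 2 members and 653 of 15417 genes. The main fit called 150 of 15315 genes. The median log2 fold change was 0.19 over the members and 0.0005 over all genes tested. Above 0 were 8 of 9 members and 7673 of the 15315 genes tested.

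Rtkn2 had 72.8, 63.8, 48.5 and 58.9 TPM in CB1R KO libraries 8, 9, 10 and 11. Libraries 8, 9 and 11 lay above the WT bleomycin range of 40.7 to 51.9 TPM and library 10 inside it, as they did in CPM. The log2 fold change was 0.43 ± 0.11 (95% interval 0.19 to 0.67, adjusted p = 0.0761), and 95.4% of the genes tested had a lower one. With DESeq2 on all libraries the adjusted p of Rtkn2 was 0.0139, and with edgeR without CB1R KO 10 the value was 0.53 (adjusted p = 0.0159); over the 25 alternatives the adjusted p ran from 0.0107 to 0.339.

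Cav1 had 704, 664, 473 and 542 TPM in the CB1R KO libraries, against 397 to 508 TPM in WT bleomycin lungs. In TPM library 10 alone was inside the WT bleomycin range, while in CPM library 11 (687.6) was inside it too (596.4 to 747.8). None reached the Control range on either scale. Its log2 fold change was 0.36 (0.10 to 0.61, adjusted p = 0.152). Clic5 split in pairs: libraries 8 and 9, at 309 and 291 TPM, were inside the Control range, and libraries 10 and 11, at 200.3 and 187 TPM, inside the WT bleomycin range. In CPM library 9 was below the Control range and library 11 below that of WT bleomycin. The log2 fold change of Clic5 was 0.27 (0.00051 to 0.54, adjusted p = 0.292).

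Emp2 had 697, 635, 462 and 503 TPM in the CB1R KO libraries, with 8 and 9 above the WT bleomycin range and 10 and 11 inside it (in CPM library 10 was just below it), and a log2 fold change of 0.14 (-0.09 to 0.36, adjusted p = 0.542). Hopx had 867, 850.2, 612 and 727 TPM, and differed by 0.17 (-0.05 to 0.38, adjusted p = 0.434). All 4 CB1R KO libraries were below the Control range for Hopx on both scales.

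Ager had 2468, 2377, 1764 and 2612 TPM. In TPM libraries 8, 9 and 11 were above every WT bleomycin and every Control library, and library 10 was below all of both groups. In CPM libraries 8 (1918.5) and 9 (1888.4) were inside the Control range of 1710.7 to 1928.0. Against WT bleomycin the log2 fold change of Ager was 0.21 (-0.01 to 0.43, adjusted p = 0.324), and without library 10 it was 0.32 (adjusted p = 0.0369). Akap5 had 129, 138, 123 and 113 TPM and a log2 fold change of 0.19 (0.03 to 0.35, adjusted p = 0.204). Aqp5 had 419, 355, 337 and 394 TPM, all above the Control range of 264 to 322 TPM, though in CPM library 10 was inside it. Against WT bleomycin it differed by 0.06 (-0.14 to 0.25, adjusted p = 0.785), and by -0.00066 without WT bleomycin 2.

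Pdpn alone had a value below 0, at -0.16 (-0.31 to -0.00091, adjusted p = 0.291). Its CB1R KO libraries held 219.8, 199, 191 and 171 TPM. Libraries 9, 10 and 11 were below the lowest WT bleomycin library, at 204 TPM, and all 4 were above the highest Control library. Over the 9 members the 95% intervals reached from -0.31, for Pdpn, to 0.67, for Rtkn2.

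In TPM the CB1R KO libraries varied more among themselves than either other group for 8 of the 9 members, Akap5 being the exception. The coefficient of variation of TPM in CB1R KO, WT bleomycin and Control lungs was 25.1%, 5.96% and 7.33% for Clic5, 19.2%, 6.11% and 4.77% for Emp2, and 16.2%, 5.13% and 3.11% for Ager. For Aqp5 it was 9.84%, 9.69% and 8.69%, and for Akap5 8.4%, 11.4% and 6.06%. Of the 9 members, library 8 was above the WT bleomycin range in TPM for 8, library 9 for 7, library 11 for 5 and library 10 for 0. In CPM library 11 was above it for 2 and the other counts were equal. Neither these counts nor that of members with the widest CB1R KO spread was taken over all genes tested. They therefore do not set the members apart from other genes.

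Marker sums differed between these 4 libraries as well. In libraries 8, 9, 10 and 11, the aerocyte markers summed to 622, 642, 476 and 487 TPM. The type II cell markers summed to 47083, 51322, 36374 and 49981 TPM, and the activated fibroblast markers to 1208, 1154, 1753 and 1480 TPM. Lymphatic endothelial markers summed to 383, 377, 667 and 513 TPM. Libraries 8 and 9 thus had the highest aerocyte and the lowest fibroblast and lymphatic sums of the 4. Library 11 is also the deepest. With it thinned to the depth of the others, 0 members and 133 of all 15318 genes passed between CB1R KO and WT bleomycin lungs. What share these tissue differences have in the members' levels was not tested.

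**Figure D4:**
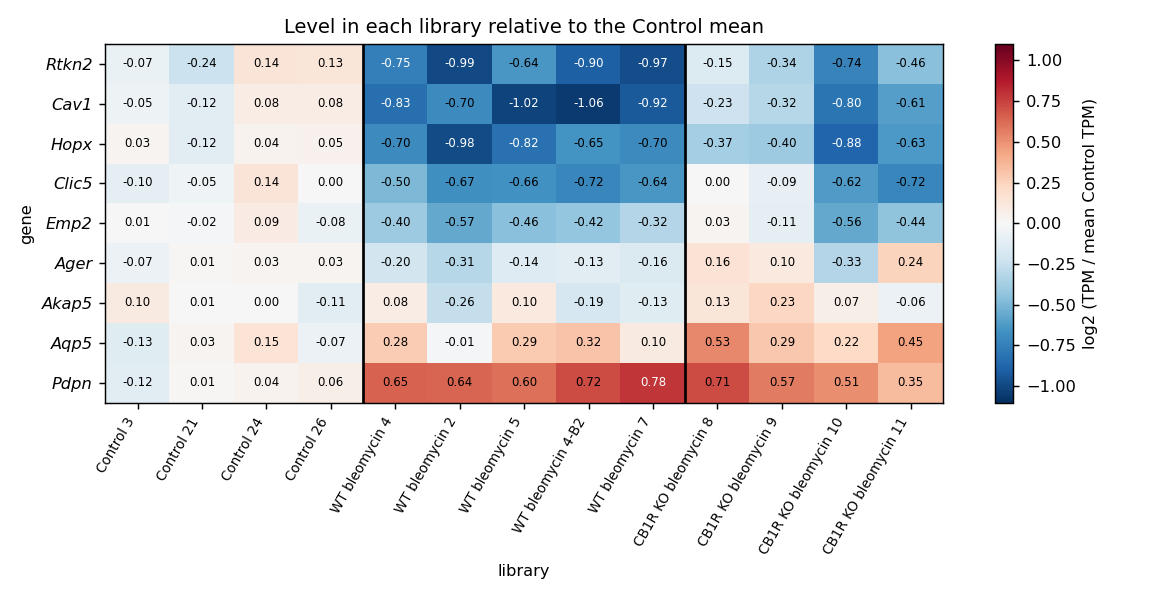
Level of each gene in each of 13 libraries as log2 of its TPM over the mean TPM of the 4 Control libraries (colour and printed value; vertical lines part the groups; genes are in order of their change in WT bleomycin lungs). CB1R KO libraries 8 and 9 are near 0 for Clic5 and Emp2, at 0.00 and -0.09 and at 0.03 and -0.11, while library 10 is at -0.62 and -0.56 and library 11 at -0.72 and -0.44; Pdpn is above 0 in all 9 bleomycin libraries.

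Of the other lists, 3 of 13 type II cell markers were higher in CB1R KO than in WT bleomycin lungs, the surfactant protein genes Sftpc (0.66 ± 0.13, adjusted p = 0.0289) and Sftpa1 (0.84 ± 0.17, adjusted p = 0.0371) and the lamellar body gene Lamp3 (0.51 ± 0.11, adjusted p = 0.0416). None of the 21 other type I genes passed, with a median log2 fold change of 0.09. Cldn4, of the transitional genes, was lower (-0.90 ± 0.18, adjusted p = 0.0314). Cavin2 was higher (0.58 ± 0.12, adjusted p = 0.0411) and Cavin3 lower (-0.39 ± 0.09, adjusted p = 0.0457). Tek was the 1 endothelial marker that passed (0.29 ± 0.06, adjusted p = 0.0391), and Gzma (0.92 ± 0.14, adjusted p = 0.0177) and Prf1 (0.75 ± 0.15, adjusted p = 0.0347) led the 3 cytotoxic cell genes that were higher. No aerocyte marker passed, with the 9 values between 0.14 and 0.44, and no relative of a member, RAGE ligand, membrane partner, AKAP5 partner or transcription regulator passed. The calls on these lists rest on few libraries: 10 genes were called in all, 0 without CB1R KO 8, without CB1R KO 9 or without CB1R KO 11, 1 without WT bleomycin 5, 4-B2 or 7, 3 without Control 24, 5 without Control 21 or WT bleomycin 2, and 30 without CB1R KO 10.

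The third comparison set the libraries labelled CB1R KO against Control. The groups differ in genotype and in treatment, which cannot be told apart here. The comparison shares its Control libraries with the first, so values are given side by side with no test between them. Of the 9 members 5 were lower and 1 was higher, against 35.4% of all genes tested (16.3% lower and 19% higher). The median log2 fold change was -0.33 over the members and -0.01 over all genes tested.

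The log2 fold change from Control was -0.67 ± 0.11 for Hopx in CB1R KO (adjusted p = 0.000297), beside -0.84 in WT bleomycin lungs. It was -0.57 ± 0.13 for Cav1 (adjusted p = 0.00286), beside -0.93, and -0.53 ± 0.12 for Rtkn2 (adjusted p = 0.00316), beside -0.97. Pdpn was higher by 0.47 ± 0.08 (adjusted p = 0.000338), beside 0.63. In mean TPM, CB1R KO lungs held 68.0% of the Control level of Hopx, 72.1% of Cav1, 75.4% of Rtkn2 and 145.5% of Pdpn, against 58.8%, 53.6%, 55.7% and 160.4% in WT bleomycin lungs.

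Clic5 (-0.41 ± 0.13, adjusted p = 0.0286) and Emp2 (-0.33 ± 0.11, adjusted p = 0.0314) passed with smaller margins. Both were lost without Control 24 (adjusted p = 0.0797 and 0.08), without CB1R KO 10 (0.0982 and 0.102) and without CB1R KO 11 (0.0881 and 0.0967). Clic5 was also lost without Control 26 (0.0576) and Emp2 without Control 21 (0.0534). In all, Clic5 did not pass under 8 and Emp2 under 9 of the 25 alternatives. The groups overlapped for Clic5 and, in TPM, for Emp2, since library 8 stood at 309 and 697 TPM.

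Ager (-0.01, 95% interval -0.24 to 0.23, adjusted p = 0.973) and Akap5 (0.03, -0.14 to 0.19, adjusted p = 0.794) did not pass. Aqp5 was just outside the threshold (0.25, 0.05 to 0.45, adjusted p = 0.0518) and passed without Control 24 (0.30, adjusted p = 0.0392) and without CB1R KO 10 (0.29, adjusted p = 0.0485), as well as without WT bleomycin 2, 5 or 4-B2, which are in neither of these groups. Aqp5 did not overlap between CB1R KO and Control libraries in TPM, though it did in CPM, where 33.5% of all genes tested did not.

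In the same comparison the other type I genes again divided, 7 higher and 6 lower of 21, and all 9 aerocyte markers were lower. Of the 13 transitional genes 11 were higher. Type II cell markers were 4 higher and 0 lower of 13. Their median log2 fold change was -0.0046, with 7 values below 0 and 6 above. Ctsh of that list, which macrophages also make, had a mean of 258 TPM in Control and 575 TPM in CB1R KO lungs. Of 8 macrophage and leukocyte markers 5 were higher, and 9 of 13 general endothelial markers were lower. The 8 caveola genes, Cav1 among them, had 3 lower and 1 higher, and the 15 relatives 4 higher and 7 lower; 7 relatives in all passed without Control 3, without CB1R KO 10 or without CB1R KO 11.

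Members were also compared by how they varied between libraries of the same group. Pearson's r of log2 CPM was taken over the 13 libraries after each group's mean had been subtracted, as a description with no p, since the libraries share depth and tissue composition. Of the 36 pairs of members, 33 had r above 0, with a median of 0.51, and other gene pairs were not counted beside them. The highest were Hopx with Emp2 (0.87), Emp2 with Clic5 (0.86) and Clic5 with Cav1 (0.86). Without the 4 CB1R KO libraries, a choice made after the values were seen, 30 of 36 stayed above 0 with a median of 0.38, and these 3 pairs stood at 0.80, 0.47 and 0.34. The high r of Clic5 with Cav1 and with Emp2 was therefore not seen in the other 9 libraries alone. Akap5 with Cav1 went from -0.04 to -0.72 and Aqp5 with Cav1 from -0.04 to -0.55.

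**Figure D5:**
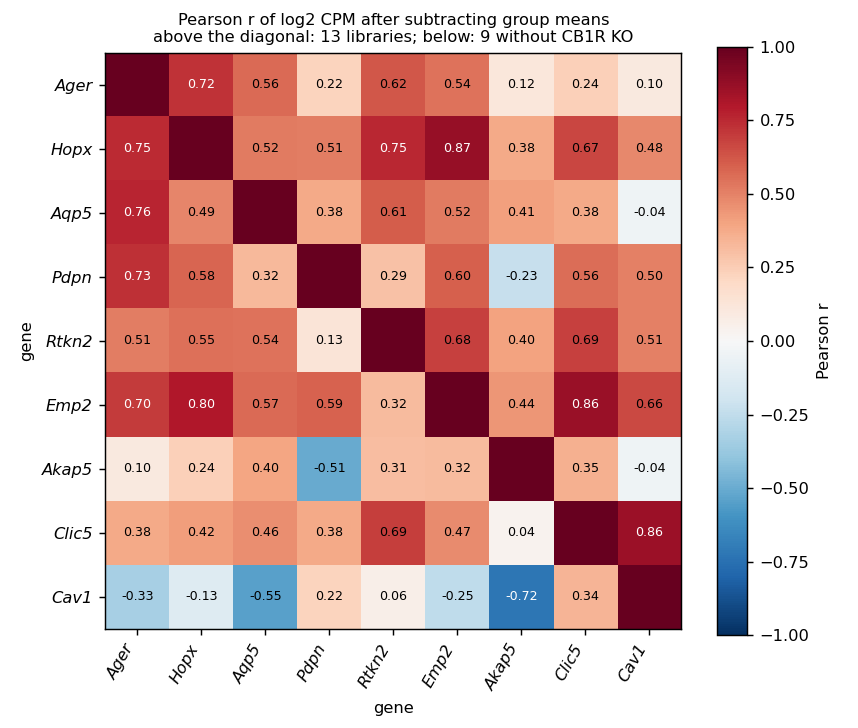
Pearson's r of log2 CPM between pairs of the 9 genes after each group's mean was subtracted, above the diagonal over 13 libraries and below it over the 9 libraries that are not CB1R KO (colour and printed value). Hopx with Emp2 stays high on both sides, at 0.87 and 0.80, while Clic5 with Cav1 goes from 0.86 to 0.34.

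The genes most like each member by this measure were taken as the 3 with the highest r among 13982 genes with a mean TPM of at least 1, a choice that itself favours high values over 13 libraries. Cav1 was nearest to Faim2 (0.96), Cavin2 (0.93) and Fmo1 (0.93), Emp2 to Lrrn3 (0.97), Ntn4 (0.95) and Tmem63b (0.94), and Clic5 to Rasgrf2 (0.95), Stard13 (0.95) and Dusp3 (0.94). Pdpn was nearest to Rab6a (0.96), Gpm6a (0.96) and Apcdd1 (0.95). Among the genes nearest to Hopx were Fam47e (0.91) and Cdkl2 (0.90). Ager was nearest to Bdh2 (0.94), Ano10 (0.94) and Mrpl9 (0.90), and Dpf3 (0.93) and Plpp2 (0.87) were among those nearest to Aqp5. Rtkn2 was nearest to Tsga10 (0.89), Npw (0.88) and Prss53 (0.88), and Akap5 to Arhgef10 (0.91), Msx1 (0.88) and Scn3a (0.86). No member is among these, and Cavin2 is the 1 gene of them that belongs to a list used here for its link to that member. Over the 9 libraries without CB1R KO, r ranged from 0.72 for Emp2 with Tmem63b to 0.99 for Pdpn with Apcdd1. With the group means kept in, r over the 13 libraries ranged from -0.81 for Pdpn with Gpm6a to 0.98 for Cav1 with Cavin2. Likeness within groups was thus not always likeness between them.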

How the data were processed

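Lung RNA-seq in 13 libraries was analysed. By the study's methods the lower right lobe was used, polyadenylated RNA was made into NEBNext Ultra II libraries, and paired-end reads were quantified by the authors with Kallisto (version not given in the sources used here) on Ensembl release 105, named GRCm39 in the submitters' processing notes. Deposited values are estimated counts and TPM, which the authors summed per gene over protein-coding transcripts; 70.2% of the count values are not whole. The 1 per-sample TPM column that matched no sample was not used. The single-sample files repeat the series tables.

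Estimated counts were rounded, filtered with filterByExpr and tested with edgeR 4.0.16 (R 4.3.3; TMM, quasi-likelihood, 1 coefficient per group, no covariate, all 13 libraries, Benjamini-Hochberg over the 15315 genes tested, adjusted p of 0.05). CPM and fold changes come from counts, and TPM gives levels. A prior count of 2 went into log2 CPM. The median SE of a log2 fold change was 0.11 for WT bleomycin against Control, 0.11 for CB1R KO against WT bleomycin and 0.12 for CB1R KO bleomycin against Control. The labels number the libraries, but 2 of WT bleomycin carry the number 4, 1 of them with the suffix B2, and nothing says that these are separate mice; p-values measure the spread between libraries, which may be technical in part. Alternatives were DESeq2 1.42.0, limma 3.58.1 on log2(TPM + 1) and log2(TPM + 0.1), other filters and normalizations, the 2 groups alone, label style, thinning of the deepest library, and each library left out. Python 3.11.15, pandas 2.3.3, numpy 2.4.6 and matplotlib 3.10.9 made tables and plots.

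The procedures were tested on simulated data. DESeq2 called more unchanged genes there than edgeR or limma and, for WT bleomycin against Control, exceeded a limit written before the run; that limit was then restated for edgeR and limma only, and calls made by DESeq2 alone should be read beside this.

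The members and the 20 other gene lists were chosen with earlier results of these data known. Named genes are all 9 members, up to 2 genes per list and direction with the lowest p past the threshold, genes of the relatives, caveola, ligand and partner lists, the 3 genes most like each member, and Cnr1. Lamp3 was named in addition, as 1 of only 3 type II genes, and Cavin3 and Hmgb1 under the same lists; Lyve1 was named after its values were seen. A few genes that this rule takes are not reported here. The study's own fold changes were not used.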

Additional observations from a re-analysis of the deposited data

Results flagged for a closer look

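One value stood apart from the rest of its group. Hopx in Control library 21, at 1030.5 TPM, lay below the other 3 Control libraries by a gap of 0.867 of the group's whole range, past Dixon's 95% critical value of 0.829 for 4 samples. The 9 members in 3 groups gave 27 such groups, and chance flags about 5% of groups. Without Control 21 the log2 fold change of Hopx in WT bleomycin lungs was -0.88 (edgeR adjusted p = 3.29e-05), and it passed. No other member was flagged in any group, CB1R KO library 10 for Ager included (gap 0.722 of the range).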

How the results depend on the processing

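Each of the 3 comparisons was recomputed under 25 alternatives, 13 of which left out 1 library each. In WT bleomycin against Control, the falls of Hopx, Rtkn2, Emp2, Clic5 and Cav1 and the rise of Pdpn passed under all 25. With 1 library left out, 6 to 7 members passed. All-gene calls then ran from 6656 of 15421 (without Control 24) to 7753 of 15429 (without CB1R KO 11). Between CB1R KO and WT bleomycin lungs, 1 member (Rtkn2) passed with DESeq2 on all libraries and 1 with DESeq2 on the 2 groups. Over all genes these settings called 640 of 19823 and 644 of 19704. With 1 library left out, 0 to 2 members passed (2 without CB1R KO 10, Ager and Rtkn2). All-gene calls then ran from 1 of 15423 (without CB1R KO 9) to 653 of 15417 (without CB1R KO 10). Aqp5 ran from -0.00066 (without WT bleomycin 2) to 0.104 with 1 library left out. In CB1R KO against Control, 4 to 7 members passed with 1 library left out. All-gene calls then ran from 4272 of 15417 (without CB1R KO 10) to 5449 of 15270 (without WT bleomycin 4-B2). Hopx, Pdpn, Rtkn2 and Cav1 passed under all 25, Clic5 under 17, Emp2 under 16 and Aqp5 under 11. Values near 0 changed sign there: Ager went to 0.0013 with no count filter, 0.045 with limma on log2(TPM + 1) and on log2(TPM + 0.1), 0.024 with label style as a term, 0.020 with lower-case labels only and from -0.080 to 0.11 with 1 library left out, and Akap5 to -0.0041 with lower-case labels only and from -0.011 to 0.074 with 1 library left out. Over the other lists, the 10 calls between CB1R KO and WT bleomycin became 28 and 32 with DESeq2 (all libraries, 2 groups), 2 with edgeR on 2 groups, 6 with limma on log2(TPM + 0.1), 1 with label style as a term, 0 with lower-case labels only and 0 to 30 with 1 library left out; the cause was not tested. Their 134 calls for WT bleomycin against Control ran from 124 to 136 with 1 library left out. No paired analysis was possible because the groups share no replicate numbers. The deepest library had 53463884 counts and the others up to 16662580, and the 95% intervals between CB1R KO and WT bleomycin reached from -0.31 (Pdpn) to 0.67 (Rtkn2).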
